A study of Arabidopsis thaliana with 64 samples.

Results

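CLE44 (AT4G13195) and CEP5 (AT5G66815) are genes for small secreted signalling peptides, 2 of the 13350 genes that the array annotation names through a probe set of 1 gene. Each has 1 probe set. They were chosen by measured values, since on these same arrays the level of CLE44 was higher and that of CEP5 lower with the auxin indole-3-acetic acid (IAA). Their IAA values are therefore a description without a test, and the tests below concern the other signals and the combinations of signals.

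The arrays hold RNA from roots of Arabidopsis thaliana seedlings after 4 h on fresh medium. The medium held any combination of 5 signals, namely nitrate, ammonium, IAA at 500 nM, the cytokinin kinetin at 500 nM and abscisic acid (ABA) at 1 µM, and the 32 possible combinations had 2 arrays each. Nitrate or ammonium was given at 1 mM, or both at 0.5 mM when together, and potassium chloride and DMSO stood in for absent signals, so the mock group received only these. All plants had grown in liquid culture with ammonium succinate as nitrogen source and had spent 24 h without nitrogen before treatment, so each group, mock included, was a nitrogen-starved root. The labels do not name an ecotype or say that the 2 arrays of a group came from separate cultures, so p-values measure only the spread between these arrays, which may be technical.

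CLE44 encodes one of the precursors of TDIF, a peptide that phloem cells secrete and that neighbouring procambial cells perceive through the receptor kinase PXY. TDIF signalling keeps procambial cells dividing and holds them back from becoming xylem. CEP5 belongs to the C-terminally encoded peptides, which act through the leucine-rich repeat receptor kinases CEPR1 and CEPR2. Some members of that family report low nitrogen from the root to the shoot, and CEP5 has been linked to auxin responses and lateral root initiation.

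Levels are intensities on the scale of the deposited values, on which each array has a trimmed mean of about 500. Array medians ranged from 103 to 303. CLE44 was above the median of its array on all 64 arrays, with a range of 556 to 24368. CEP5 ranged from 5.89 to 8605 and was below the array median on 15 of 32 arrays with IAA and 2 of 32 without IAA. Changes are differences of log2(intensity + 1) ± SE from 1 limma fit over all 22746 probe sets, and adjusted p-values are Benjamini-Hochberg values over all of these, with 0.05 as the threshold. Because a pseudocount of 1 was added, a fold change understates the change of dim genes, and a level in whole roots does not tell fewer cells of a type from less RNA per cell.

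The labelled tissue was checked against marker genes. Of 3 root hair markers 2 had a named probe set, EXPA7 and EXPA18. Both read above 0 on every array, with a lowest single value of 128, within the range of array medians, 103 to 303. The photosynthetic genes RCA and LHCB4.1, 2 of 7 green tissue markers, were not at 0 either. Their lowest single value was 7.75 and their summed level ran from 144 to 1185. As no value of either marker set was at 0, being above 0 could not tell root from green tissue. None of 3 phloem and 5 xylem markers had a named probe set, so the tissues in which TDIF acts could not be followed.

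CLE44 was high in every group with IAA. Its intensity was 1837 at the lowest, 10440.2 at the median and 24368 at the highest over the 32 arrays with IAA, against 556, 1379 and 3911 over the 32 arrays without IAA. The averaged difference was 2.80 ± 0.17 on the log2 scale, or 6.94-fold. In each of the 16 backgrounds, a background being 1 combination of the other 4 signals, both arrays with IAA lay above both arrays without IAA, which was so for 0.0703% of all probe sets. In the averaged IAA comparison 1.27% of all probe sets passed as raised. Both shares come from the contrast that chose CLE44, and nothing is read from them.

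Within this pattern the size of the IAA difference varied. It was 3.62 in roots given ABA, with 14382 and 10459.6 with IAA against 765 and 1306 without IAA. It was 2.26 with no other signal, where the arrays with IAA read 9721 and 5298 and the mock arrays 1000.2 and 2249.6. It was 1.65 in roots given the other 4 signals, with 6686 and 11436 with IAA against 1975 and 3911 without IAA. The smallest difference thus came from the background in which CLE44 was highest without IAA, and the largest from one in which it was low. The level without IAA is itself part of each difference, so nothing is read from this order. No interaction of IAA with another signal passed for CLE44. These terms, the difference between the IAA effect with and without the other signal, ran from -0.27 for nitrate and -0.20 for ABA to 0.06 for kinetin and 0.09 for ammonium, each ± 0.34, with adjusted p-values from 0.957 to 1.00. Of all probe sets 0% passed for the interaction of IAA with nitrate or with ammonium, 0.00879% for that with kinetin and 0.0396% for that with ABA. In limma 662 and 815 probe sets had an unadjusted p under 0.05 for nitrate and ammonium. The 95% intervals of all 4 lay within -0.96 and 0.79. For ammonium, kinetin and ABA the sign turned under another setting.

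**Figure D1:**
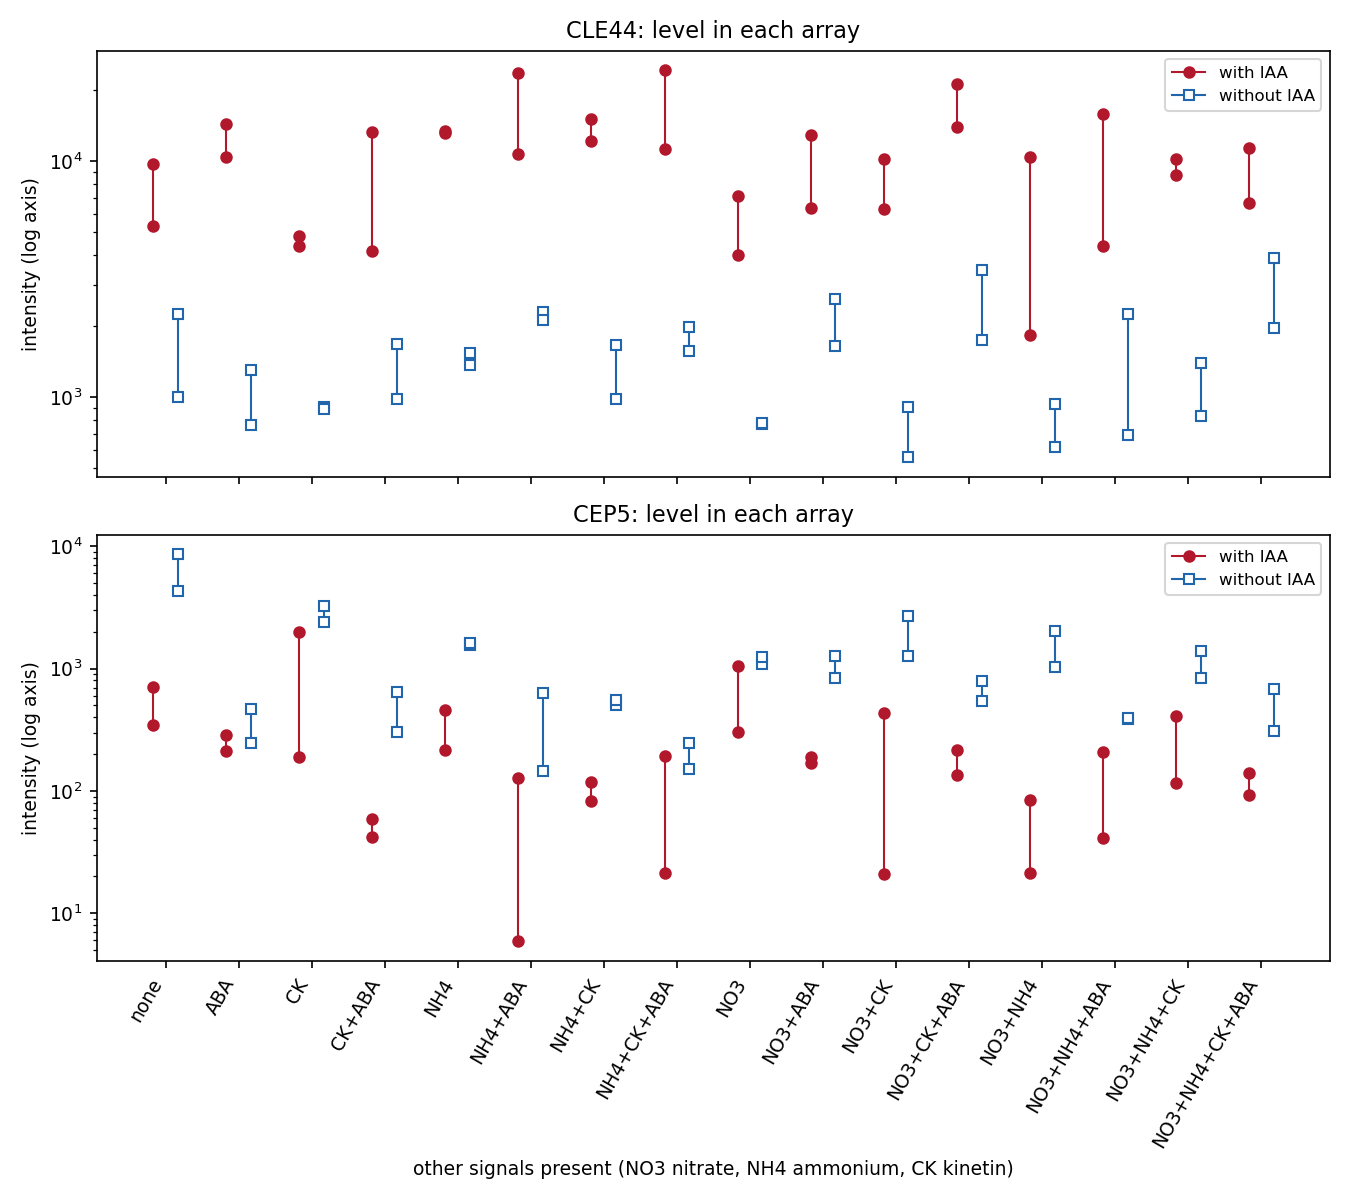
Intensity of CLE44 (upper panel) and CEP5 (lower panel) on each array, on a log axis, for the 16 combinations of the other signals, with IAA as filled circles and without IAA as open squares, and a line joining the 2 arrays of a group. All arrays with IAA lie above their matched arrays without IAA for CLE44, and the CEP5 pair without any other signal shows the highest level of that gene, 4264 and 8605 in the mock group.

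CEP5 was low in most groups with IAA. Its intensity was 5.89 at the lowest, 178 at the median and 1975 at the highest over the arrays with IAA, against 145, 811 and 8605 over the arrays without IAA. The averaged difference was -2.51 ± 0.29, or 5.70-fold lower with IAA. The group mean was lower with IAA in 16 of 16 backgrounds, as for 0.242% of all probe sets. In 14 of these both arrays with IAA lay below both arrays without it, and 0.0703% of all probe sets had at least 14 such backgrounds. In the averaged IAA comparison 1.38% of all probe sets passed as lowered, and again nothing is read from these shares.

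The IAA difference of CEP5 was widest in roots given both nitrogen sources, at -5.05, with 21.3 and 83.7 with IAA against 2038 and 1023 without IAA. It was -3.61 without any other signal, where IAA gave 706 and 348 and mock 4264 and 8605. It was narrowest with ABA, at -0.46, where the 288 and 211 with IAA overlapped the 249 and 466 without IAA. Roots given ABA and no nitrogen or kinetin thus had a low CEP5 level with and without IAA. This did not hold for all roots with ABA. With nitrate and ABA, the arrays with IAA read 168 and 191 against 1269 and 831 without IAA. Averaged over the backgrounds with ABA the IAA difference was -2.13 ± 0.40, and -2.90 ± 0.40 over those without ABA. The interaction of IAA with ABA was 0.77 ± 0.57 (adjusted p = 0.892) and did not pass, and those of IAA with nitrate, ammonium and kinetin were -0.26, -0.24 and 0.09. The sign for nitrate turned when 1 of 2 single arrays was left out, and those for ammonium and kinetin under other settings.

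ABA raised CLE44 and lowered CEP5. CLE44 rose by 0.69 ± 0.17, or 1.61-fold (adjusted p = 0.00222), with a lowest, median and highest intensity of 689, 4030.2 and 24368 over the 32 arrays with ABA against 556, 2044 and 15141 over the 32 without ABA. CEP5 fell to 5.89, 214 and 1269 with ABA against 20.9, 769 and 8605 without ABA, a change of -1.55 ± 0.29, or 2.92-fold lower (adjusted p = 6.21e-05). The ranges with and without ABA overlapped for both genes. ABA moved a large part of the array, with 8.48% of all probe sets raised and 18.8% lowered, so neither call is rare on these arrays. The median change over all probe sets was -0.19 as deposited and -0.05 after quantile normalization, and relative to -0.19 CLE44 stood higher and CEP5 less far down. After quantile normalization the ABA changes were 0.59 for CLE44 (adjusted p = 0.0159) and -1.39 for CEP5 (adjusted p = 0.00018).

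The ABA change was spread over the backgrounds. The CLE44 group mean was higher with ABA in 14 of 16, and in 7 of these both arrays with ABA lay above both arrays without it. For all probe sets, 6.58% were higher in at least 14 backgrounds and 7.3% had at least 7 backgrounds apart in that direction. CEP5 was lower with ABA in 14 of 16 backgrounds and apart in 11, against 12% and 3.09% of all probe sets. The CEP5 count of non-overlapping backgrounds was thus reached by fewer probe sets than the CLE44 count.

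**Figure D2:**
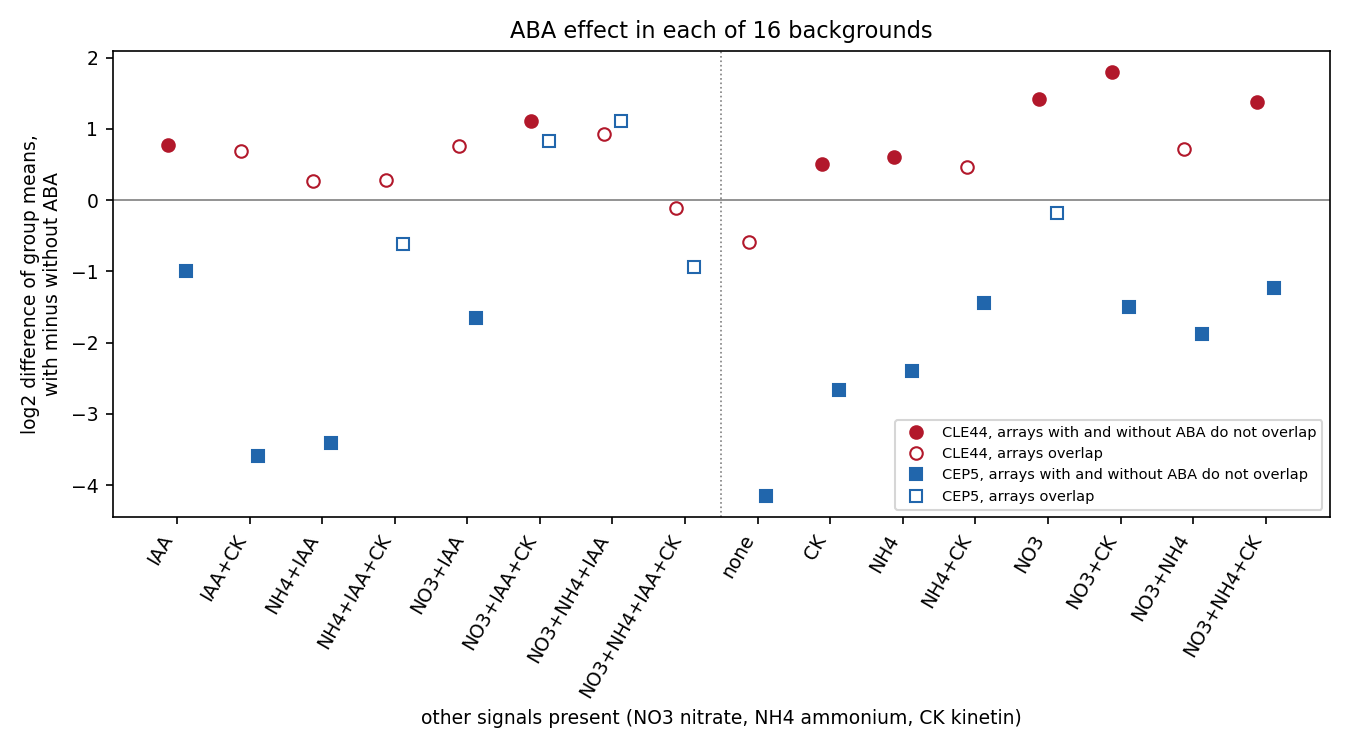
Log2 difference of the group means with minus without ABA for CLE44 (circles) and CEP5 (squares) in each of the 16 backgrounds, those with IAA left of the dotted line, filled where the 2 arrays with ABA and the 2 without ABA do not overlap. CLE44 lies above 0 in 14 backgrounds and CEP5 below 0 in 14.

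For CLE44 the largest ABA differences were found on nitrate without IAA. With nitrate and kinetin, ABA gave 1757 and 3468 against 905 and 556 without ABA, a difference of 1.80. With nitrate alone, ABA gave 1642 and 2601 against 767 and 778 without ABA, a difference of 1.42. In both backgrounds the arrays with ABA lay above those without ABA. With no other signal the arrays with ABA, 765 and 1306, overlapped the mock arrays, 1000.2 and 2249.6, and the difference was -0.59 ± 0.68 (adjusted p = 0.854). That sign was positive, at 0.52, in a model of single signals and pairs. Without IAA the averaged ABA change was 0.79 ± 0.24 (adjusted p = 0.0249), where 6.11% of all probe sets rose, and with IAA it was 0.59 ± 0.24 (adjusted p = 0.0875), where 5.84% rose. The first call was lost without mock replicate 1 or without the second array of the nitrate, ammonium and ABA group, with adjusted p-values up to 0.0598. The second passed in a fit on the array median (0.97, adjusted p = 0.000279) and without the 6 arrays of most extreme median (0.91, adjusted p = 0.00561).

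For CEP5 the largest ABA difference was that of ABA alone. The arrays with ABA read 249 and 466 and the mock arrays 4264 and 8605, a difference of -4.15 ± 1.14, or 17.7-fold lower (adjusted p = 0.0669), with 0.325% of all probe sets passing as lowered in this comparison of 2 arrays with 2. With kinetin, ABA gave 303 and 639 against 2423 and 3233 without ABA. With ammonium, it gave 636 and 145 against 1572 and 1630.3 without ABA. In these 3 backgrounds the arrays without ABA lay far above those with ABA. With nitrate alone they overlapped, 1269 and 831 with ABA against 1088 and 1241 without ABA. Without IAA the averaged ABA change was -1.93 ± 0.40 (adjusted p = 0.00066), where 6.93% of all probe sets fell. With IAA it was -1.16 ± 0.40 (adjusted p = 0.0406), where 12.5% fell, and this call was lost under 4 settings, with adjusted p-values up to 0.193, and in the fits without each of 17 single arrays, where adjusted p-values reached 0.109.

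Signs of RNA quality moved with some signals. The log2 ratio of 3' to 5' actin control probe sets was 6.11 ± 0.94 with ABA and 6.56 ± 0.95 without ABA (SD, n = 32 each), and 6.28 ± 1.06 with IAA and 6.39 ± 0.88 without IAA. A second pair of actin control probe sets gave 4.47 ± 0.44 with ABA and 4.47 ± 0.49 without ABA, and 4.65 ± 0.38 with IAA and 4.29 ± 0.46 without IAA. For nitrate the first ratio was 6.11 ± 0.81 with it and 6.57 ± 1.06 without it, and the second 4.37 ± 0.40 and 4.57 ± 0.50. For kinetin these were 6.33 ± 0.95 and 6.34 ± 1.00, and 4.58 ± 0.41 and 4.35 ± 0.48. For ammonium they were 6.41 ± 0.97 and 6.27 ± 0.97, and 4.51 ± 0.44 and 4.43 ± 0.48. With the first ratio as a covariate the ABA changes were 0.78 for CLE44 (adjusted p = 0.00112) and -1.66 for CEP5 (adjusted p = 5.93e-05). With the second they were 0.69 and -1.55, and the IAA differences were 3.03 for CLE44 and -2.36 for CEP5. Marker genes moved as well. Both root hair markers fell with ABA, by 0.51 for EXPA7 and 0.47 for EXPA18 on the log2 scale. With ABA 18.8% of all probe sets fell, and the median change over all was -0.19. The summed level of these 2 markers had a median of 1102 with ABA (340 to 2295) and 1595 without ABA (846 to 2407). With IAA, EXPA18 fell by 0.68 (log2, adjusted p = 0.00126), where EXPA7 stood at -0.24 (adjusted p = 0.376), and their summed level had a median of 1089 with IAA (340 to 2407) and 1589 without IAA (791 to 2390). Of the green tissue markers LHCB4.1, below the array median on 34 of 64 arrays, rose with ABA by 0.84 ± 0.25 (adjusted p = 0.00906), and RCA stood at -0.05 ± 0.17 (adjusted p = 0.859). Of all probe sets 1.38% fell with IAA and 8.48% rose with ABA. The part of these markers in the results was not tested.

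The nitrogen sources gave CEP5 lower mean values with ammonium, without passing the test. Where nitrate and ammonium were given together each was at 0.5 mM, so in 8 of the 16 backgrounds the effect of an ion mixes its presence with a change of dose. With ammonium CEP5 had a lowest, median and highest intensity of 5.89, 231 and 2038 over the 32 arrays with it, against 20.9, 505 and 8605 over those without ammonium. The averaged change was -1.13 ± 0.29, or 2.19-fold lower, and missed the threshold (adjusted p = 0.0614). It passed under 7 of 10 other ways of processing, with adjusted p-values from 0.00645, for a pseudocount of 64, to 0.0449. It did not pass with the first actin ratio as a covariate, with a replicate block or with array weights, nor with the second actin ratio, which was chosen after seeing the data (0.0528 to 0.0786). CEP5 was lower with ammonium in 13 of 16 backgrounds and apart in 7, against 1.96% and 1.47% of all probe sets, and 0.136% of all probe sets passed as lowered.

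By nitrogen source, the highest CEP5 values were those of roots without nitrogen, IAA or ABA. Without IAA and ABA its 4 arrays on mixed nitrogen read 2038, 1023, 1398 and 832, those on nitrate only 1088, 1241, 2705 and 1278, and those on ammonium only 1572, 1630.3, 499.8 and 555. The 4 arrays without nitrogen read 4264, 8605, 2423 and 3233, which overlapped those on nitrate only. The nitrogen sources were not tested within this hormone state, and these values are a description. Over all hormone combinations, 16 arrays against 16, CEP5 on ammonium only stood at -1.45 ± 0.40 relative to no nitrogen (adjusted p = 0.102), on mixed nitrogen at -1.05 ± 0.40 (adjusted p = 0.272) and on nitrate only at -0.25 ± 0.40 (adjusted p = 0.898). Nitrate only exceeded ammonium only by 1.21 ± 0.40 (adjusted p = 0.34). None of these passed. Of all probe sets 0.462% passed for ammonium only (0.145% as lowered), 1.38% for mixed nitrogen, 0.594% for nitrate only and 0.391% for nitrate only against ammonium only. The ammonium difference passed with a pseudocount of 64 (-1.12, adjusted p = 0.0237), in the fit on the array median (-1.62, adjusted p = 0.0324) and without the first array of the ammonium, IAA and ABA group (-1.72, adjusted p = 0.0325).

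**Figure D3:**
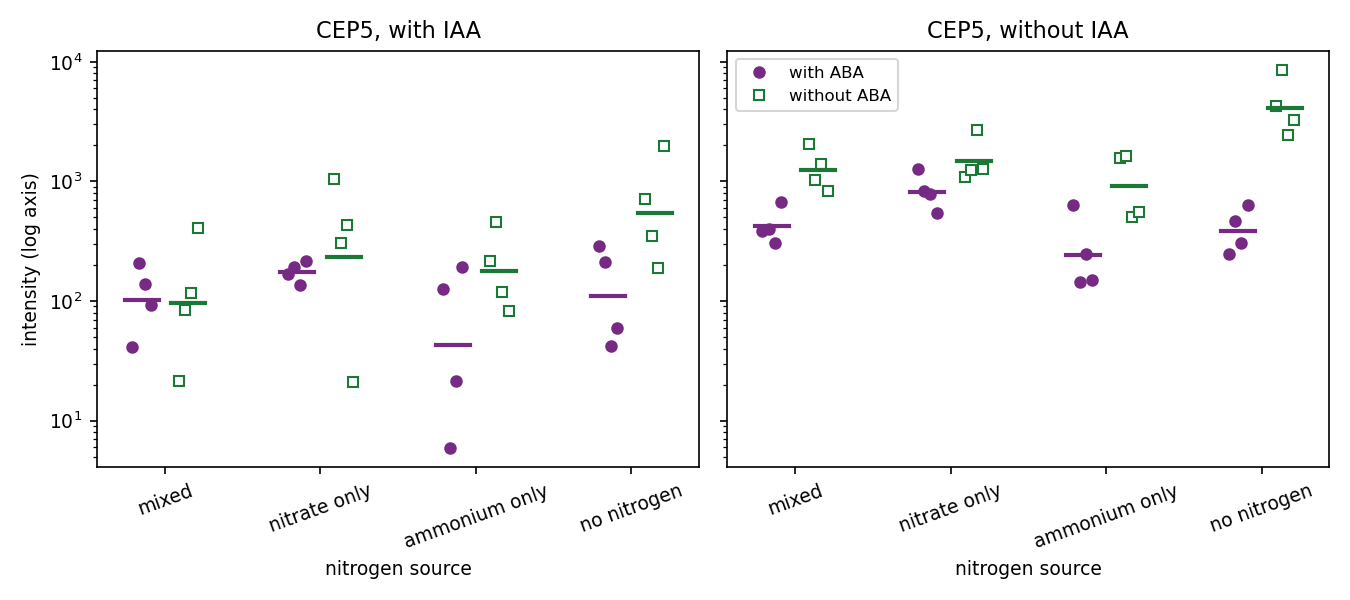
CEP5 intensity on each array, on a log axis, by nitrogen source, with IAA (left panel) and without IAA (right panel), with ABA as filled circles and without ABA as open squares, and bars at the geometric mean of 4 arrays. Without IAA and ABA the 4 arrays without nitrogen run from 2423 to 8605.

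The nitrate difference of CEP5 was above 0 in 7 of 8 backgrounds with ABA and in 3 of 8 without ABA, but the interaction did not pass. In mock conditions nitrate gave 1088 and 1241 against 4264 and 8605 in the mock group, a difference of -2.38. In roots with ABA nitrate gave 1269 and 831 against 249 and 466 without nitrate, a difference of 1.59. Both pairs were apart, in opposite directions. The interaction of nitrate with ABA over all backgrounds was 1.72 ± 0.57, with an unadjusted p of 0.00471 and an adjusted p of 1.00. It was the largest of the 10 pairwise terms of CEP5 in size. In limma 0 probe sets passed for this interaction, and 925 had an unadjusted p under 0.05. Over all backgrounds together the nitrate change of CEP5 was 0.08 ± 0.29 (adjusted p = 0.981), where 0.884% of all probe sets passed. Its sign turned in fits on the array median or on either actin ratio and without the 6 arrays of most extreme median.

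CLE44 did not pass for nitrate, ammonium or kinetin. Ammonium gave a lowest, median and highest intensity of 617, 3099.9 and 24368 over 32 arrays against 556, 3746 and 21335 over those without ammonium, a change of 0.31 ± 0.17 (adjusted p = 0.596). Nitrate gave 556, 3689.6 and 21335 against 765, 3219 and 24368 without nitrate, a change of -0.22 ± 0.17 (adjusted p = 0.827). The ranges with and without each ion overlapped widely, and 0.506% of all probe sets passed for ammonium. Relative to no nitrogen, CLE44 stood at 0.76 ± 0.24 on ammonium only (adjusted p = 0.175, with 0.317% of all probe sets raised), 0.23 ± 0.24 on nitrate only (adjusted p = 0.82) and 0.09 ± 0.24 on mixed nitrogen (adjusted p = 0.918), and the last sign turned under other settings. Nitrate only differed from ammonium only by -0.53 ± 0.24 (adjusted p = 0.717).

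With IAA, the 8 arrays on ammonium only ran from 10736 to 24368 with a median of 13327, against 4149.6 to 14382 with a median of 7509.5 on the 8 arrays without nitrogen. With IAA the 8 arrays on mixed nitrogen read 1837 to 15916 (median 9470.1). Those on nitrate only read 4024 to 21335 (median 8674). The values on ammonium only overlapped the other 3 ranges, with the highest median of the 4 nitrogen states. The interaction of nitrate with ammonium was -0.90 ± 0.34 for CLE44 (adjusted p = 0.658, unadjusted p = 0.0125), and that of nitrate with kinetin 0.83 ± 0.34 (adjusted p = 0.327, unadjusted p = 0.0208). These were its largest pairwise terms in size as fitted, but nitrate with kinetin was smaller than nitrate with ABA in the fit on the array median (0.36 against 0.61) and without the 6 arrays of most extreme median (0.64 against 0.69). Of all probe sets 0.0132% passed for nitrate with ammonium and 0% for nitrate with kinetin, where 3141 had an unadjusted p under 0.05 in limma. Interactions of 3 or more signals, tested jointly with a moderated F test, gave an adjusted p of 1.00 for both genes, and 0 probe sets passed, with 748 at an unadjusted p under 0.05.

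Neither gene passed for kinetin, for which 2.07% of all probe sets did. CLE44 stood at 0.14 ± 0.17 (adjusted p = 0.943) with a 95% interval of -0.20 to 0.49, and CEP5 at -0.35 ± 0.29 (adjusted p = 0.856) with an interval of -0.93 to 0.23. CEP5 intensity ranged from 20.9 to 3233 over the arrays with kinetin, with a median of 305, against 5.89 to 8605 without kinetin, with a median of 391. CLE44 ranged from 556 to 24368 with kinetin, with a median of 4030.2, against 617 to 23744 without kinetin, with a median of 2445. The ranges overlapped in both genes.

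**Figure D4:**
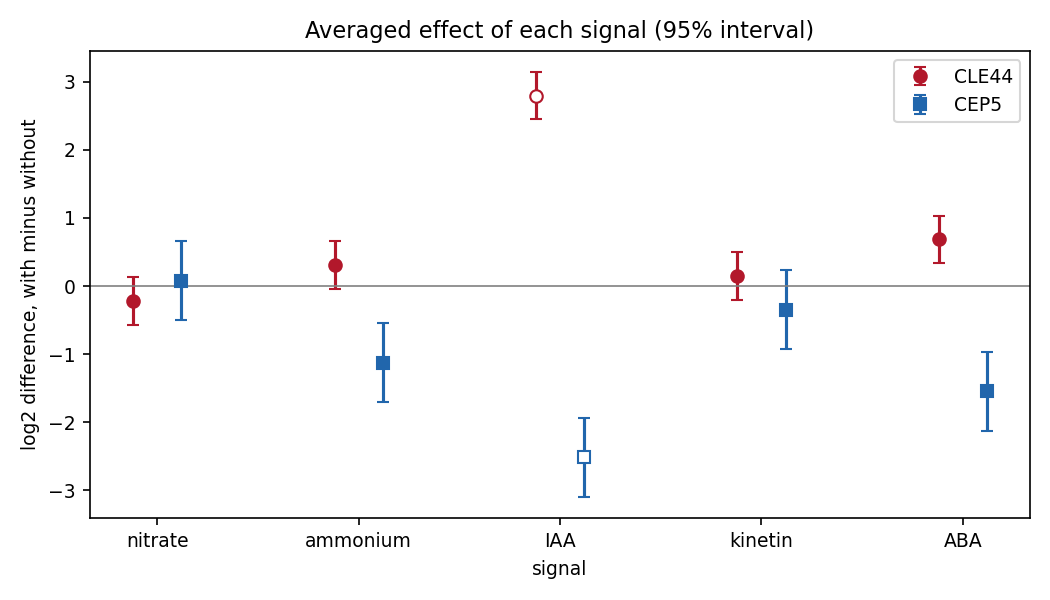
Averaged log2 difference with minus without each signal for CLE44 (circles) and CEP5 (squares), with 95% intervals, 32 arrays against 32. The IAA points, 2.80 and -2.51, are open because IAA chose the genes; the ABA points, 0.69 and -1.55, are the only others that passed.

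In the order of group means, the 16 groups with IAA took ranks 17 to 32 for CLE44, counted from the lowest, and the 16 without IAA ranks 1 to 16. Neighbouring groups in this order overlapped in 29 of 31 cases, so the order within each IAA state is largely unresolved. The highest group was nitrate, IAA, kinetin and ABA together, with 21335 and 14040 and a geometric mean of 17307, and the lowest nitrate and kinetin, with 556 and 905 and a geometric mean of 709. The 6 highest groups, all with IAA, lay apart from the next one down, though not from groups further down. There 1 array of nitrate, ammonium, IAA and ABA read 15916 and 1 of IAA, kinetin and ABA 13341, against 10459.6 at the lowest in these 6. For CEP5 the mock group was highest and apart from the next, kinetin alone with 2423 and 3233. The lowest was ammonium, IAA and ABA, with 127 and 5.89. Groups with IAA took ranks 1 to 23 and those without IAA ranks 11 to 32. Neighbours overlapped in 29 of 31 cases here too. The 8 highest groups, all without IAA, lay apart from the group next below them, though not from groups further down. There 1 array of IAA and kinetin read 1975 and 1 of nitrate and IAA 1046, against 831 at the lowest in these 8. Of these 8 groups 1 held ABA, that with nitrate.

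The variation between groups was divided among the signals as a description, without a test. For CLE44, IAA held 84.2% of the variation of the 32 group means, ABA 5.09%, all pairs of signals 5.91% and combinations of 3 or more 3.08%. For CEP5, IAA held 48.9%, ABA 18.5%, ammonium 9.88%, pairs 10.1% and combinations of 3 or more 11.6%. Both genes were chosen for their IAA difference, so the IAA shares, and the size of the others beside them, follow in part from that choice. Of the variation of CLE44 beside IAA, ABA held 32.2%, pairs 37.3% and combinations of 3 or more 19.4%. For CEP5 these were 36.2%, 19.7% and 22.7%, and ammonium held 19.3%. The variation from pairs and higher combinations includes the spread between duplicates. Duplicates of CLE44 differed by 1.68-fold at the median and by up to 5.67-fold, in the nitrate, ammonium and IAA group with 1837 and 10421. Duplicates of CEP5 differed by 1.93-fold at the median and by up to 19.9-fold, in the nitrate, IAA and kinetin group with 434 and 20.9. The pooled SD of CEP5 on the log2 scale was 1.55 with IAA and 0.64 without IAA, so duplicates differed more where the gene was low.

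These gaps moved with the median intensity of the arrays. Over the 32 groups, the log2 gap of CLE44 between the 2 arrays correlated with the gap in array median (Pearson r = 0.64, permutation p = 0.0001, adjusted p = 0.0004; Spearman rho = 0.61, permutation p = 0.00022, adjusted p = 0.00044). For CEP5 r was 0.43 (permutation p = 0.0134, adjusted p = 0.0134) and rho 0.47 (permutation p = 0.0069, adjusted p = 0.0092). Adjustment was over these 4 tests, each two-sided with 100000 resamples. Without the 2 groups of most extreme gap in median r was 0.58 for CLE44 and 0.31 for CEP5. In a fit on the array median the SE of the CLE44 ABA change was 0.14 in place of 0.17, and the changes were 0.94 for CLE44 (adjusted p = 9.05e-07) and -1.30 for CEP5 (adjusted p = 0.000574). The array median itself was lower with ABA by 0.18 on the log2 scale on average, and its part in these results was not tested beyond that fit.

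The relatives of CLE44 were taken from a list of 32 CLE genes, of which 7 had a named probe set. With ABA 2 of the other 6 rose, 0 fell and 4 did not pass, with a median of 0.09 against -0.19 over all probe sets, of which 8.48% rose. CLE27 rose by 0.70 ± 0.21 (adjusted p = 0.0113), with a lowest, median and highest intensity of 122, 446 and 1195 with ABA against 23.2, 336 and 604 without ABA. CLV3, which acts in the shoot meristem, rose by 1.19 ± 0.28 (adjusted p = 0.00115), but it was below the array median on 52 of 64 arrays. With probe sets of the dimmest 40% left out 1 of these 2, CLE27, could be tested. CLE41, the other gene whose peptide is TDIF, stood at 0.07 ± 0.16 with ABA (adjusted p = 0.802) and -0.25 ± 0.16 with IAA (adjusted p = 0.595). Its intensity ran from 1736 to 14497 over all arrays, above the array median on each of them. CLE41 thus passed for neither signal, and the difference between it and CLE44 was not tested.

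Among the 6 other CLE genes, IAA lowered 1, CLV3, by 0.99 on the log2 scale (adjusted p = 0.0424), where 1.38% of all probe sets fell. This call was lost in the fits without each of 42 single arrays, with array weights and without the 6 arrays of extreme median. CLE26, CLE40 and AT5G59305 passed for none of the 5 signals. Of the TDIF receptor list 2 of 9 genes were named, both relatives of PXY. AT4G28650 (PXL2) was lower with IAA by 0.62 ± 0.15 (adjusted p = 0.0166), as were 1.38% of all probe sets. AT1G08590 (PXL1) passed for no signal. The receptor kinase CR4 (ACR4), which perceives CLE40 in the root tip and was the 1 named gene of 8 on the list of other CLE receptors, passed for none either. AT5G59305 and CR4 were dim, with median intensities of 9.76 and 11.7 with IAA and 7.40 and 12.7 without IAA. Array medians ran from 103 to 303, so the lack of a call for these genes says little about a response. PXY and WOX4 have no named probe set here.

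The other named CEP genes fell with ABA, as CEP5 did. Of a list of 11 CEP genes 5 had a named probe set, and the other 4 all fell with ABA, with a median of -0.90 against -0.19 over all probe sets, where 18.8% of probe sets fell. AT2G40530 fell by 0.56 ± 0.14 on the log2 scale (adjusted p = 0.00293), with 255, 1121 and 2359.6 as lowest, median and highest intensity with ABA against 538, 1643 and 3296 without ABA. AT2G23440 fell by 3.06 ± 0.36 on the log2 scale (adjusted p = 1.7e-08), with 3.91, 12.0 and 234 with ABA against 6.06, 154 and 2692 without ABA. AT3G50610 and AT1G16950 fell by 1.18 and 0.61 on the log2 scale. These last 3 were dim, below the array median on 51, 61 and 64 of 64 arrays, and with the dimmest 40% of probe sets left out AT2G40530 was the only one tested and passed. The gene names of the list come from background knowledge, since the annotation gives these genes by locus only.

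None of these 4 passed for IAA, with values from -0.09 to 0.30, nor for nitrate, ammonium or kinetin. CEP5, at -2.51 with IAA, was chosen for that value. All 4 were below 0 with nitrate, from -0.73 to -0.08, where CEP5 stood at 0.08.

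**Figure D5:**
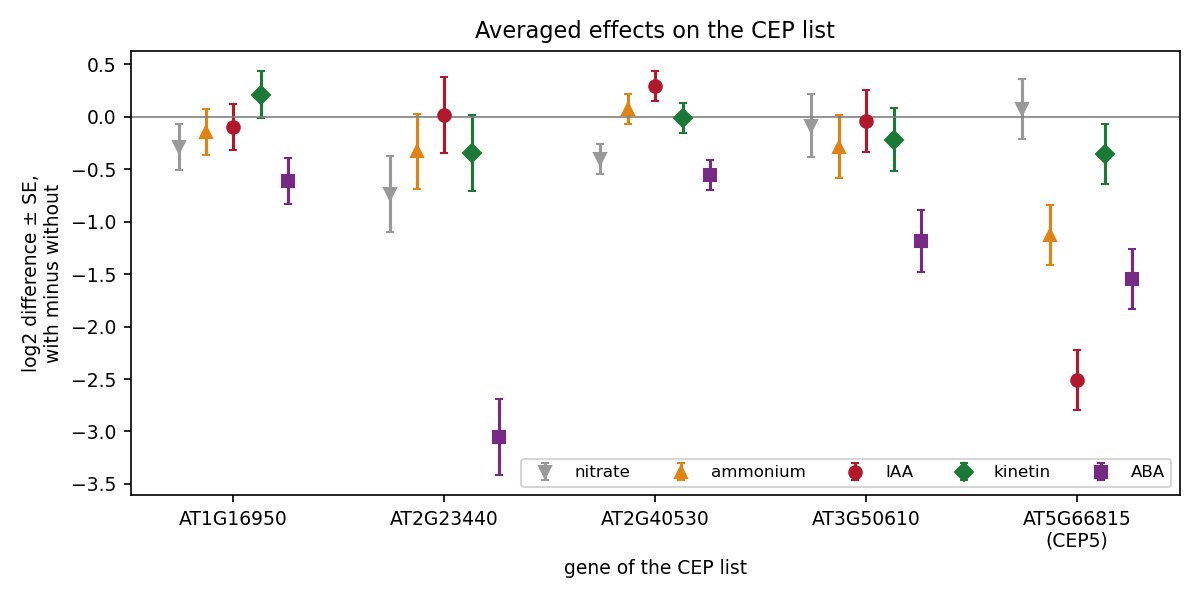
Averaged log2 difference ± SE with minus without each of the 5 signals for the 5 CEP genes with a named probe set. All 5 lie below 0 with ABA, from -0.56 to -3.06, and for IAA CEP5 alone lies far below 0, for which it was chosen.

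Downstream of the CEP receptors, 5 of 10 listed genes were named, none of them a receptor or nitrate transporter. They are loci of CEP downstream signalling, 4 for small glutaredoxin-type proteins and AT4G32950 for a protein phosphatase that acts on nitrate uptake. AT1G06830 fell with ABA by 3.00 ± 0.17 on the log2 scale (adjusted p = 1.8e-16), to 113, 448 and 1078 against 352, 3109 and 16197 without ABA. It also fell with IAA, by 0.93, and with ammonium, by 0.79 (adjusted p = 0.0177). Of the 5 genes 1 fell with IAA and 2 with ammonium, where 1.38% and 0.136% of all probe sets fell. A link of these changes to CEP5 was not tested. AT3G62960 fell with ABA by 0.79, with nitrate by 0.98 and with ammonium by 1.08. AT2G30540, dim on 63 of 64 arrays, fell with ABA by 0.79 (adjusted p = 0.0441). AT4G32950 rose with nitrate by 0.46 and with ABA by 0.42 and fell with kinetin by 0.65. AT2G47880 passed for none. With ABA 3 of the 5 fell and 1 rose, where 18.8% of all probe sets fell and 8.48% rose.

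Other peptide genes gave a mixed picture. Of 96 such genes 11 had a named probe set, 10 of them RALF-like peptides, which act on cell expansion. With ABA RALFL32 rose by 0.58, RALFL18, RALFL27 and RALFL34 fell by 1.04, 0.77 and 0.58 on the log2 scale, and 7 did not pass. These 3 of 11 and 1 of 11 stand beside 18.8% of all probe sets lowered and 8.48% raised with ABA. Kinetin lowered RALFL27 by 0.79 on the log2 scale (adjusted p = 0.0337). IAA lowered RALFL24 by 0.50 on the log2 scale (adjusted p = 0.0238). Among lateral root genes LBD29 and PUCHI, regulators of lateral root initiation, rose with IAA, LBD29 by 3.82. LBD16, the third named gene of this list, did not pass for IAA, with which 1.27% of all probe sets rose. LBD16 and PUCHI fell with ABA by 0.71 and 0.37 on the log2 scale, PUCHI just inside the threshold (adjusted p = 0.04996). The summed level of LBD16, LBD29 and PUCHI, 3 of 6 listed genes, had a median of 1437 with IAA (538 to 6016) and 484 without IAA (244 to 1239), and its part in the IAA values of CLE44 and CEP5 was not tested.

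The genes closest to CLE44 over the 32 group means, by Pearson r among 13349 named genes, were AT3G09280 (r = 0.94), GH3.3 (0.93), HAT2 (0.91), GH3.1 (0.86) and AT4G21740 (0.82). GH3.3 and GH3.1 encode enzymes that conjugate auxin to amino acids, and HAT2 is a homeobox gene induced by auxin. Among these 5 genes the IAA difference ran from 2.29 to 6.53 and the ABA difference from -0.21 to 0.61, so CLE44, at 0.69, stood above all 5 for ABA. The lowest r were those of GSTU28 (-0.88), a glutathione S-transferase, AT4G22460 (-0.87) and AT3G56230 (-0.82). All genes share arrays and scaling, and these values are a description. After the mean of each IAA state was taken off, the closest were AT3G27270 (0.94), AT3G03160 (0.92), AT2G21180 (0.88), AT1G17090 (0.86) and AT3G50685 (0.84). All 5 had an ABA difference above 0, from 0.30 to 1.02, which follows in part from picking them by likeness over the same means. The lowest were IDH-V (-0.85), AT2G47320 (-0.84) and AT3G11630 (-0.82).

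CEP5 had looser company. Over the 32 group means AT2G47540 (r = 0.80), AT3G21680 (0.78), AT5G55650 (0.77), AT3G43960 (0.77) and AT1G07300 (0.76) came closest, and IAA30 (-0.76), an auxin-inducible member of the Aux/IAA repressors, AT4G20480 (-0.75) and the metal transport gene MTP11 (-0.74) were lowest. Among the 5 closest both the IAA and the ABA difference were below 0, from -1.79 to -0.57 for IAA and from -1.29 to -0.52 for ABA. These genes were picked by likeness over the same means, so the shared signs follow in part from the choice. After the mean of each IAA state was taken off, AT1G49700 (0.81), AT1G01725 (0.77), POL (0.75), a protein phosphatase known from shoot meristem signalling, AT3G06890 (0.74) and AT1G19330 (0.74) were closest, and AT2G20670 (-0.77), AT1G62660 (-0.73) and AT3G30390 (-0.72) lowest. Over an r of 0.7 were 28 genes for CLE44 and 19 for CEP5 over the 32 means, and 111 for CLE44 and 12 for CEP5 after the mean of each IAA state was taken off. The r between CLE44 and CEP5 was -0.74, and -0.34 after the mean of each IAA state was taken off.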

How the data were processed

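Roots of Arabidopsis thaliana were hybridised to Affymetrix arrays, 64 arrays in 32 groups of 2. The authors deposited 1 linear intensity per probe set and array. From the values, every array had been brought to a common mean, 499.4 to 499.7 once the lowest and highest 2% of probe sets were left out. Which program did this is not given in the sources used here. Per the labels' protocols, Trizol was used for RNA extraction and biotin for labelling. Groups and doses come from the sample titles and the design text. The labels give 14 to 16 days of growth and the design text 12 to 14.

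Of 22810 probe sets, 64 controls were left out and 22746 tested. Intensities were transformed as log2(value + 1) and the 32 group means fitted with limma 3.58.1 in R 4.3.3 (eBayes, prior 3.83 and residual 32 degrees of freedom), with Benjamini-Hochberg adjustment within each comparison. A signal's averaged effect is its mean difference over 16 backgrounds. Simulated intensities, in which 50 of 22746 probe sets were changed at each size, served to test the fit. In the averaged ABA comparison the recovery was 16% at a log2 change of 0.5, 62% at 1 and 100% at 2, with 7 false calls. It was lower for the interaction of IAA with ABA (0%, 22% and 76%, 7 false calls) and for nitrate only against no nitrogen (10%, 36% and 84%, 3 false calls). The number of arrays limits the precision.

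Probe sets were named through the platform annotation, 1 gene for 13513 probe sets, several for 503 and none listed for 8794, and 13436 of the first matched RefSeq (TAIR10.1), used for names only. CEP5 is listed there by locus. The genes named are CLE44 and CEP5, every named gene of the peptide and marker lists, and the 5 highest and 3 lowest by correlation, a gene with several probe sets being represented by the one of highest mean. The 2 genes and the lists were chosen with earlier results of these data known.

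Alternatives tried were pseudocounts of 16 and 64, quantile normalization, the array median or an actin ratio as a covariate, a replicate block, array weights, leaving out the 6 arrays of extreme median, a model of single signals and pairs, leaving out the dimmest 40% of probe sets, and leaving out each array in turn. A second actin ratio was added after seeing the data.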

Additional observations from a re-analysis of the deposited data

How the results depend on the processing

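Both ABA calls held under all 11 settings and all 64 fits that left out 1 array. CLE44 ran from 0.59 to 0.94 over the settings and from 0.61 to 0.77 over the single arrays, and CEP5 from -1.66 to -1.30 and from -1.68 to -1.41. The ammonium change of CEP5 passed with pseudocounts of 16 (-1.03) and 64 (-0.88), quantile normalization (-1.18), the array median as a covariate (-1.24), without 6 arrays of extreme median (-1.33), in the model of pairs and without the dimmest probe sets (-1.13 both), and without 1 of 8 single arrays (-1.26 to -0.99). CEP5 on ammonium only against no nitrogen passed with a pseudocount of 64 (-1.12) and the median covariate (-1.62), and ran from -1.72 to -1.19 without single arrays. ABA alone against mock passed for CEP5 under 6 settings. The cause of these moves was not tested.

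Signs turned for the following values, none of which had passed. For CLE44 these were ammonium with IAA (-0.13 with the median covariate, -0.051 without 6 arrays, -0.063 to 0.25 without single arrays), IAA with kinetin (-0.00165 by quantile normalization, -0.26 with the second actin ratio, -0.10 to 0.22), IAA with ABA (0.053 with the median covariate, 0.18 without 6 arrays), kinetin with ABA (-0.031 without 6 arrays, -0.00033 to 0.31), kinetin without IAA (-0.017 with the median covariate), nitrate without IAA (-0.19 to 0.023), mixed against no nitrogen (-0.13 with the median covariate and without 6 arrays, -0.068 to 0.24), ammonium alone (0.083 with the median covariate, 0.22 and 0.34 with the actin ratios, 0.68 in the model of pairs, -0.63 to 0.54) and ABA alone (0.52 in the model of pairs). For CEP5 they were nitrate (-0.020 with the median covariate, -0.038 and -0.0030 with the actin ratios, -0.011 without 6 arrays, -0.057 to 0.21 without single arrays), ammonium with IAA (0.090 with a pseudocount of 64, -0.51 to 0.027), IAA with kinetin (-0.12 with the second actin ratio, -0.18 to 0.36), kinetin with ABA (-0.11 without 6 arrays), nitrate with IAA as an interaction (-0.53 to 0.0074), nitrate in roots with IAA (-0.32 to 0.22) and nitrate only against no nitrogen (-0.52 to 0.024).

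Of the other CLE genes, 0 in place of 1 passed with IAA with array weights, without 6 arrays or without the dimmest probe sets (0 to 1 without single arrays). With kinetin 1 in place of 0 passed under both pseudocounts, quantile normalization and the median covariate (0 to 1 without single arrays). Without the dimmest probe sets 1 in place of 2 CLE genes and 1 in place of 4 CEP genes passed with ABA (3 to 4 CEP genes without single arrays). CLE44 with IAA alone stood at 2.95 in the model of pairs and 3.31 with the second actin ratio.

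The labels number duplicates 1 and 2 in each group, but do not say what else arrays of 1 number share. The correlation of their deviations ran from -0.26 to 0.42 over 496 pairs of groups. Its median was 0.05 and it was over 0.1 in 164, so shared variation between arrays of 1 number cannot be set aside. With the replicate number as a block the ABA change was 0.69 for CLE44 and -1.55 for CEP5, the ammonium change of CEP5 -1.13 (adjusted p = 0.0528), and 6665 in place of 6210 probe sets passed with ABA. The block changed none of 64 calls for both genes. It raised the calls for ammonium to 173 in place of 115, and the median covariate to 193; for nitrate that covariate gave 348 in place of 201, for IAA 1123 in place of 603 and for kinetin 742 in place of 470. Quantile normalization split the ABA calls as 2568 up of 5561, and the deposited scaling as 1929 up of 6210.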
